A study of Mus musculus with 3 samples.

Results

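The angiomotins (Amot, Amotl1 and Amotl2), the coactivators Yap1 and Wwtr1 (also called Taz) and the Tead factors (Tead1 to Tead4) were followed through 2 days of Gata6 overexpression in mouse embryonic stem (ES) cells. The 9 genes were chosen from these same arrays, with their signals on day 0, day 1 and day 2 known, and every probe set annotated to 1 of them alone was used, which gave 18 of the 45101 probe sets and 9 of the 18193 genes in the data. In the study, mouse ES cells, pluripotent cells of the early embryo, carried a modification through which dex, read here as dexamethasone, turned on overexpression of Gata6, a transcription factor of the primitive endoderm. The 3 arrays are a control labelled day 0, cells on day 1 and cells on day 2 of overexpression, each hybridised with RNA of a single sample. The sources used here do not give the dex dose, the strain or the clone, nor say if the day 0 cells carried the modification. Exposure to dex, time in culture and overexpression cannot be told apart in this design.

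Angiomotins are scaffold proteins of cell junctions that bind Yap1 and Wwtr1 and keep them out of the nucleus. Freed of that and of phosphorylation by the Lats kinases of the Hippo pathway, Yap1 and Wwtr1 enter the nucleus and switch on genes through the Tead proteins, which bind DNA but need a coactivator. In the early mouse embryo this choice separates outer cells, where Yap1 and Tead4 turn on trophectoderm genes, from inner cells, where angiomotins at the junctions hold Yap1 back. Amot is also known from the visceral endoderm of the mouse embryo, whose cells migrate abnormally without it.

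Promoter windows of 300 bases (250 before and 50 after an annotated start, RefSeq, GRCm38.p6) were read for the 7 members that the table held. They are shown for Amot and Wwtr1, which had the widest differences between days, for Amotl2, itself a known Tead target, and for Yap1 as a gene that stayed within 2-fold. Capitals mark the letters GATAA, a core to which GATA factors bind, or GGAATG, a core to which Tead factors bind, on either strand (TTATC and CATTCC are the other strand). No GATAA match overlapped a GGAATG match in the windows shown.
Amot, chrX:145487590-145487889, minus strand: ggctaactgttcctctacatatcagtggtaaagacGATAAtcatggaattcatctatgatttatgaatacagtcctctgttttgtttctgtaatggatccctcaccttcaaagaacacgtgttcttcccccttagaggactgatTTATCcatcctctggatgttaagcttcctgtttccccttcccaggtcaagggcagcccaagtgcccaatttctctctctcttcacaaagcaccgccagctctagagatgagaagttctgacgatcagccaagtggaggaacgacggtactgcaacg
Wwtr1, chr3:57575861-57576160, minus strand: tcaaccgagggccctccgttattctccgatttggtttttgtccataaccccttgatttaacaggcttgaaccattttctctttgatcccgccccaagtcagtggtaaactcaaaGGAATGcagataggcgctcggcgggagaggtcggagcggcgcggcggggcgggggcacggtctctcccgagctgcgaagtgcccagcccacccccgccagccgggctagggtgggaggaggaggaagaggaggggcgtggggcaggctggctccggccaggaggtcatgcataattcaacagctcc
Amotl2, chr9:102717554-102717853, plus strand: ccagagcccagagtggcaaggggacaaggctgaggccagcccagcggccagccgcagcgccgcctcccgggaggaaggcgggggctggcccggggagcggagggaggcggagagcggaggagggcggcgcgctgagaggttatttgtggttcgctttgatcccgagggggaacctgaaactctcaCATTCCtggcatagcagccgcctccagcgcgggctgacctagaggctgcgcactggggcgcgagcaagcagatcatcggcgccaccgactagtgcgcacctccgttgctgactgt
Yap1, chr9:8004547-8004846, minus strand: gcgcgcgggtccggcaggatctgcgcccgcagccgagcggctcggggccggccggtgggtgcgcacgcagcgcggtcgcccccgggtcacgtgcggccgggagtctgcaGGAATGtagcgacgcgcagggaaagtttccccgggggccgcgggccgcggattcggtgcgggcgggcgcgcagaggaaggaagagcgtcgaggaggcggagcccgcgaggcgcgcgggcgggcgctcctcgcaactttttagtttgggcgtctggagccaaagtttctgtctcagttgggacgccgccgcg

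The Amot window lies inside the annotated gene (chrX:145446424-145505966), at an internal start. So does the Amotl2 window (gene at chr9:102717091-102733418), and, not shown, the Amotl1 window and a Tead3 window. The Amot window held the GATA letters 2 times, with the first base 215 and 106 bases before the start, and no Tead letters. Amot was the only 1 of the 7 members with a GATA match, and 28.4% of all 27025 genes have at least 1 in any of their windows. The Tead letters stood in windows of 4 of the 7 members (Amotl2, Yap1, Wwtr1 and Tead3) and in those of 16.6% of all genes. Wwtr1 had 2 windows and Tead3 3, so each had more chances of a match. Both a member that was several times brighter (Wwtr1) and one within 2-fold (Yap1) carried them. A match of this kind describes the letters only.

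Signals are linear MAS5 intensities of a probe set, given after scaling all arrays to 1 trimmed mean. A signal under 54.0, the 40th percentile of all scaled values, was set to that floor before log2 was taken, and a gene is represented by its probe set with the highest mean log2 signal. With 1 array per day there is no replicate and no test, and what differs between days may equally differ between 1 culture and the next. The only error estimate is the disagreement between probe sets of a gene in their log2 ratio, an SD of 0.47 where the dimmest signal was under 200, 0.28 from 200 to 1000, 0.19 from 1000 to 5000 and 0.11 above. It does not cover the spread between cultures. In a bulk sample, more cells of a type and more RNA per cell cannot be told apart. Median deposited signals were close, at 84.2, 81.8 and 86.4 for the arrays of day 0, day 1 and day 2. Probe sets of olfactory and vomeronasal receptors, which ES cells should not express, had a 95th percentile of 70.2, and 17 of the 18 member probe sets lay above the floor on all 3 days.

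Gata6 itself, by the probe set that stands for it, read 110 on day 0, 5574 on day 1 and 6070 on day 2. Its probe sets ran in log2 ratio from 0.00 to 5.67 on day 1 and from 0.93 to 5.79 on day 2 against day 0. The 0.00 is of a probe set at the floor on day 0 and day 1 and is not a measured ratio. All 7 listed primitive endoderm markers were at least 2-fold higher on day 1 and on day 2 than on day 0. Their summed signals were 310, 37936 and 57557 on day 0, day 1 and day 2. Gata6 is among these markers and in these sums, and its overexpression was imposed by the design. The others were Gata4, Sox17, Sox7, Pdgfra, Dab2 and Foxa2. All 7 listed pluripotency markers were at least 2-fold lower on both days, with sums of 79414, 17593 and 9963. The labelled ES cell identity thus had its defining markers (Pou5f1, Nanog and Sox2) bright on day 0.

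Among the 9 members, 3 were at least 2-fold higher on day 1 than on day 0 (Amot, Wwtr1 and Tead4) and 0 were lower. On day 2, 5 were higher (these 3 with Amotl2 and Tead3) and 0 were lower. Over all genes compared, 6.00% were at least 2-fold higher on day 1 and 11.0% on day 2, and 6.58% and 10.1% were lower. Between day 2 and day 1, 0 of the 9 members differed 2-fold, against 5.61% of all genes higher and 3.67% lower. The median log2 ratio of the members was 0.58 on day 1 and 1.10 on day 2, both against day 0, beside -0.04 and -0.05 over all genes. The genes were put together with such differences already known, so these counts describe the members and support nothing further.

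**Figure D1:**
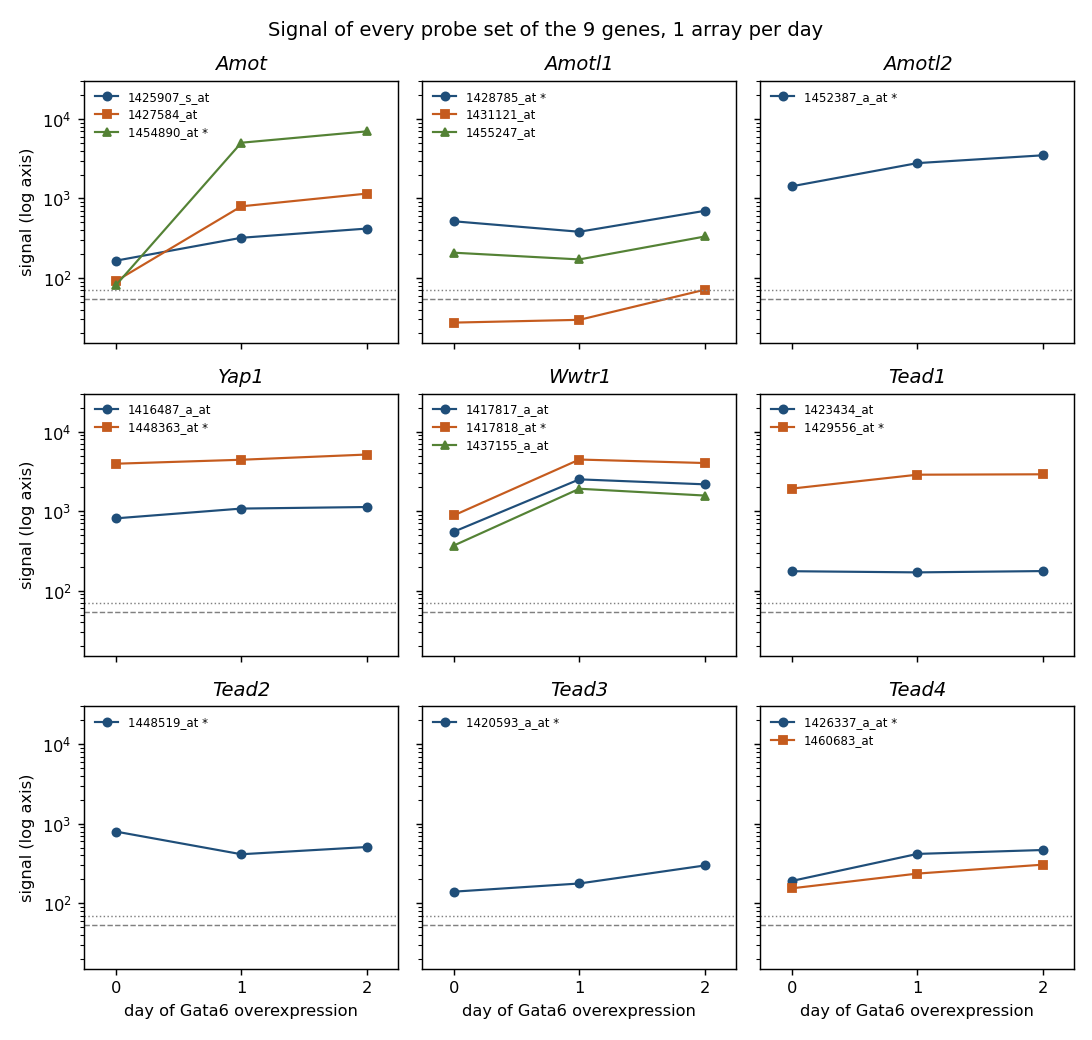
Signal of each of the 18 probe sets (log axis) on the single array of day 0, day 1 and day 2, with 1 panel per gene and an asterisk at the probe set that stands for the gene. The dashed line is the floor of 54.0 and the dotted line the receptor background of 70.2. The 3 Amot lines lie between 80.3 and 165 on day 0 and between 418 and 6984 on day 2, whereas the 3 Wwtr1 lines run in parallel.

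Amot was by far the most altered member. The probe set that stands for it, 1454890_at, read 80.3 on day 0, 5024 on day 1 and 6984 on day 2. Its day 0 signal was barely above the receptor background, and nearly the whole difference was present on day 1. The signal was 62.5-fold higher on day 1 than on day 0 (log2 ratio 5.97, measurement SD 0.47) and 86.95-fold higher on day 2 (6.44, SD 0.47). These ratios ranked 7 from the top of 13602 genes on day 1 and 9 from the top of 13865 on day 2. Day 2 exceeded day 1 by 1.39-fold.

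The other Amot probe sets had the same direction and smaller ratios. Probe set 1427584_at read 90.9, 796 and 1151 on day 0, day 1 and day 2, with day 1 brighter than day 0 by 8.75-fold and day 2 by 12.7-fold. Probe set 1425907_s_at read 165, 320.0 and 418, or 1.94-fold and 2.54-fold higher. The log2 ratios of the 3 probe sets thus ran from 0.96 to 5.97 on day 1, a gap many times the measurement SD. The size of the Amot difference depended on the probe set read and its sign did not. Between day 2 and day 1 the 3 probe sets had close log2 ratios, from 0.38 to 0.53.

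Amotl2, another angiomotin and a known target of Yap1, was brighter on each later day. It read 1422 on day 0, 2783 on day 1 and 3490.4 on day 2, from a single probe set. The day 1 signal stood just under the 2-fold line, at 1.96-fold (log2 ratio 0.97, SD 0.19), and the day 2 signal just past it, at 2.45-fold (1.30, SD 0.19). Both differences exceed the measurement SD several times.

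Amotl1, also of this family, was dimmer on day 1 and brighter on day 2. Its probe set 1428785_at read 516, 381 and 699 on day 0, day 1 and day 2, and 1455247_at read 208, 171 and 332. In both, day 1 was the lowest and day 2 the highest. The log2 ratio of day 1 against day 0 was -0.44 (SD 0.28) for 1428785_at. For 1455247_at it was -0.28 (SD 0.47), within the measurement SD. Day 2 exceeded day 1 by 1.84-fold and 1.94-fold, close to 2-fold without reaching it. The remaining probe set was under the floor on day 0 and day 1 and read 71.2 on day 2.

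Amot and Amotl2 thus exceeded day 0 on both later days in every probe set, whereas Amotl1 did so on day 2 alone. Amot set itself apart from Amotl2 in size on 2 of its 3 probe sets, while 1425907_s_at had ratios close to those of Amotl2.

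Wwtr1 and Yap1, close relatives with largely shared partners, differed between days to unlike degrees. Wwtr1 read 883 on day 0, 4457 on day 1 and 4028 on day 2 on its brightest probe set, 1417818_at. It was thus several times brighter from day 1 on and did not gain further on day 2. The day 1 signal was 5.05-fold higher than on day 0 (log2 ratio 2.34, SD 0.28) and the day 2 signal 4.56-fold higher (2.19, SD 0.28). The other Wwtr1 probe sets read 549.8, 2511 and 2173, and 368, 1912 and 1570.2. All 3 probe sets had close log2 ratios, from 2.19 to 2.38 on day 1 and from 1.98 to 2.19 on day 2, and all 3 were slightly dimmer on day 2 than on day 1 (log2 ratios from -0.28 to -0.15).

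Yap1 read 3948, 4429 and 5152 on day 0, day 1 and day 2 on probe set 1448363_at, and 811, 1077 and 1127 on 1416487_a_at. Both probe sets were a little brighter on each later day. The log2 ratio was 0.17 on day 1 (SD 0.19) and 0.38 on day 2 (SD 0.19) for the brighter probe set, and 0.41 and 0.47 for the other. The day 1 difference of the brighter probe set lay within the measurement SD.

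The Tead factors, which share a DNA-binding domain, did not move as a block. Tead4, the member needed for trophectoderm in the mouse embryo, read 191, 418 and 468 on day 0, day 1 and day 2 on probe set 1426337_a_at. The other Tead4 probe set read 154, 237 and 306. Both were brighter on each later day. Their log2 ratios were 1.13 and 0.62 on day 1 and 1.29 and 0.99 on day 2 against day 0 (SD 0.47 for each). The first passed 2-fold on both days and the other on neither, so the call for Tead4 rests on the probe set chosen.

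Tead3 was dim and had its increase late. Its single probe set read 140.0 on day 0, 178 on day 1 and 299 on day 2. Day 1 lay within the measurement SD of day 0 (log2 ratio 0.34, SD 0.47), and day 2 was 2.14-fold higher than day 0 (1.10, SD 0.47).

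Tead2, known as the Tead gene active earliest in the mouse embryo, was the only member whose representative signal was lower on both days. Its single probe set read 799.6 on day 0, 414 on day 1 and 511 on day 2. The log2 ratio was -0.95 on day 1 (SD 0.28), a 1.93-fold difference just short of 2-fold, and -0.65 on day 2. On day 1, 7.23% of all genes had a lower ratio.

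Tead1 read 1920.3, 2873 and 2907 on day 0, day 1 and day 2 on probe set 1429556_at. That probe set was 1.496-fold higher on day 1 and 1.51-fold on day 2 (log2 ratios 0.58 and 0.60, SD 0.19). The dimmer probe set, at 175, 169.6 and 176, showed no such difference, with log2 ratios of -0.05 and 0.01.

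**Figure D2:**
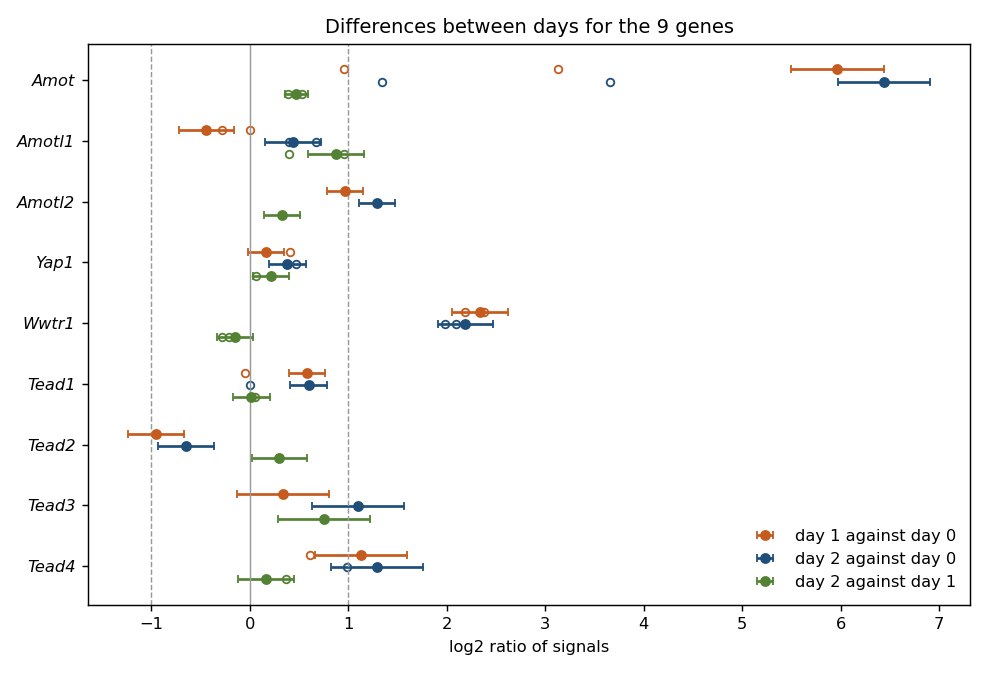
Log2 ratio of signals for each gene in day 1 against day 0, day 2 against day 0 and day 2 against day 1. Filled points are the probe set that stands for the gene, with the measurement SD as bar. Open points are the gene's other probe sets above the floor on at least 1 day. Dashed lines mark 2-fold. The dimmest Amotl1 probe set was at the floor on day 0 and day 1, so its point at 0 is not a measured ratio. Amot stands at 5.97 and 6.44 with its other probe sets far to the left, Wwtr1 at 2.34 and 2.19, and Tead2 below 0 in both comparisons with day 0.

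The genes whose course over the 3 arrays was closest to that of each member past 2-fold on day 2 were looked up among 10905 genes above the floor on all 3 days. Likeness was the larger of the gaps in log2 ratio on day 1 and day 2 against day 0. For Amot they were Dkk1 (gap 0.46), Serpinh1 (0.51) and Gata6 itself (0.65). The course used for Amot was that of 1454890_at alone, and its other probe sets had smaller ratios. Genes at the floor on day 0, such as Sox17, Pdgfra, Foxa2 and Gata4, were not searched. Dkk1 read 79.6, 5816 and 5050.0 on day 0, day 1 and day 2. For Wwtr1 they were Shroom3 (0.04), Map3k5 (0.07) and C130073F10Rik (0.09). Shroom3 read 437, 2154 and 1966 on the 3 days. Amotl2 was closest to Ist1, Cpt2 and Aak1, Tead3 to Tbkbp1, Mlec and Mcm9, and Tead4 to Bad, Ablim1 and Serp1, with gaps from 0.0047 to 0.05. Courses as moderate as these are shared by many genes, and with 3 arrays a close match is weak evidence of likeness.

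Upstream of Yap1 stand the Hippo kinases and adaptors, of which 21 of 22 listed genes could be compared. Past 2-fold on day 1 were 3 higher genes and 1 lower, and on day 2 4 higher and 1 lower, all against day 0. The shares of all genes higher and lower were 6.00% and 6.58% on day 1, and 11.0% and 10.1% on day 2. The list's median log2 ratios were 0.17 and 0.02. Nf2, the tumour suppressor merlin that activates Lats kinases at the membrane, was the lower one and read 1911, 718 and 714 on day 0, day 1 and day 2. It was 2.68-fold lower on day 2 than on day 0, and its 4 probe sets ran from -1.87 to -1.04 in log2 ratio. The kinase Lats1 passed 2-fold on day 2 only, at 399, 513 and 1098 on the 3 days. Its probe sets were already somewhat brighter on day 1, with log2 ratios of 0.36 and 0.52. Its close relative Lats2 read 215, 280.2 and 303 (log2 ratio 0.49 on day 2), but its probe sets ranged from 0.30 to 1.15 on day 2. On day 1 they ran from 0.00, of a probe set at the floor on day 0 and day 1, to 1.55.

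Ptpn14, a phosphatase that binds Yap1 and is also listed among its targets, had the widest difference of this list. It read 313, 740.2 and 1988 on day 0, day 1 and day 2, which is 6.36-fold higher on day 2 than on day 0. Its probe sets ran from 1.76 to 2.67 in log2 ratio on day 2, with the 6.36-fold as the highest. The other higher genes were Wwc2, a scaffold related to Kibra (703, 1975 and 1560.1), and the LIM protein Limd1 (246, 591 and 502). The kinase Stk4 (Mst1) read 2195, 1937 and 1648, within 2-fold. Stk3 was not analysed here.

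Of the Fat and Dachsous cadherins with their kinase Fjx1, only 3 of 6 genes on the array lay above the floor on any day. Fat1, a giant cadherin, was lowest on day 1, with signals of 4434, 1348 and 2295 on the 3 days. Fat3 (75.6, 11.7 and 85.4) was dim, and Fjx1 (71.4, 60.4 and 139.9) was brightest on day 2, its day 1 signal lying under the receptor background. The median log2 ratio of the 3 genes was -0.49 on day 1 and 0.18 on day 2, both against day 0.

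Vestigial-like proteins bind Tead factors in competition with Yap1. Of the 4, Vgll3 was at least 2-fold higher on day 1, and 0 differed 2-fold on day 2 against day 0 (median log2 ratios 0.23 and -0.11). Among all genes, 6.00% were higher and 6.58% lower on day 1, and 11.0% and 10.1% on day 2. Vgll3 read 93.0, 316 and 105.8 on day 0, day 1 and day 2, so that day 1 stood above both other days. Vgll4 read 176, 164 and 109. Vgll2 (55.9, 82.8 and 83.0) and Vgll1 (71.7, 4.00 and 7.50) were dim throughout.

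Most of the 14 compared partners of the angiomotins at junctions stayed within 2-fold of day 0, 11 on day 1 and 9 on day 2. On day 1, 2 passed 2-fold upward and 1 downward (6.00% and 6.58% of all genes), and on day 2 4 and 1 did so (11.0% and 10.1% of all genes), with median log2 ratios of 0.52 and 0.61 beside -0.04 and -0.05 over all genes. Patj, a scaffold that binds angiomotins, read 108, 231 and 981 on day 0, day 1 and day 2, 9.13-fold higher on day 2 than on day 0. Over Patj probe sets the day 2 log2 ratios ran from 2.17 to 3.19, with the 9.13-fold as the highest. The related scaffold Mpdz (Mupp1) read 88.5, 219 and 247. The polarity proteins Crb3 (158, 257 and 508) and Pard6b (645, 1009.9 and 1658) passed 2-fold on day 2 alone. That timing is of the probe sets that stand for them. On day 1 the log2 ratios over probe sets ran from -1.33 to 1.08 for Crb3 and from 0.65 to 1.06 for Pard6b. E-cadherin (Cdh1) was the lower one, at 3131, 1249 and 1480.2 on the 3 days.

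Among 8 enzymes that modify or degrade angiomotins, 0 were at least 2-fold higher and 1 lower on day 1, and 1 higher and 0 lower on day 2 (median log2 ratios 0.02 and -0.23). For all genes the shares higher and lower were 6.00% and 6.58% on day 1, and 11.0% and 10.1% on day 2. Tnks, a tankyrase, was the higher one, at 1197, 2194 and 3844, but its probe sets ran from -0.69 to 1.68 in log2 ratio on day 2. The deubiquitinase Usp9x read 2947, 2135 and 1494, and the ubiquitin ligase Nedd4 read 13022, 6294 and 6895.

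**Figure D3:**
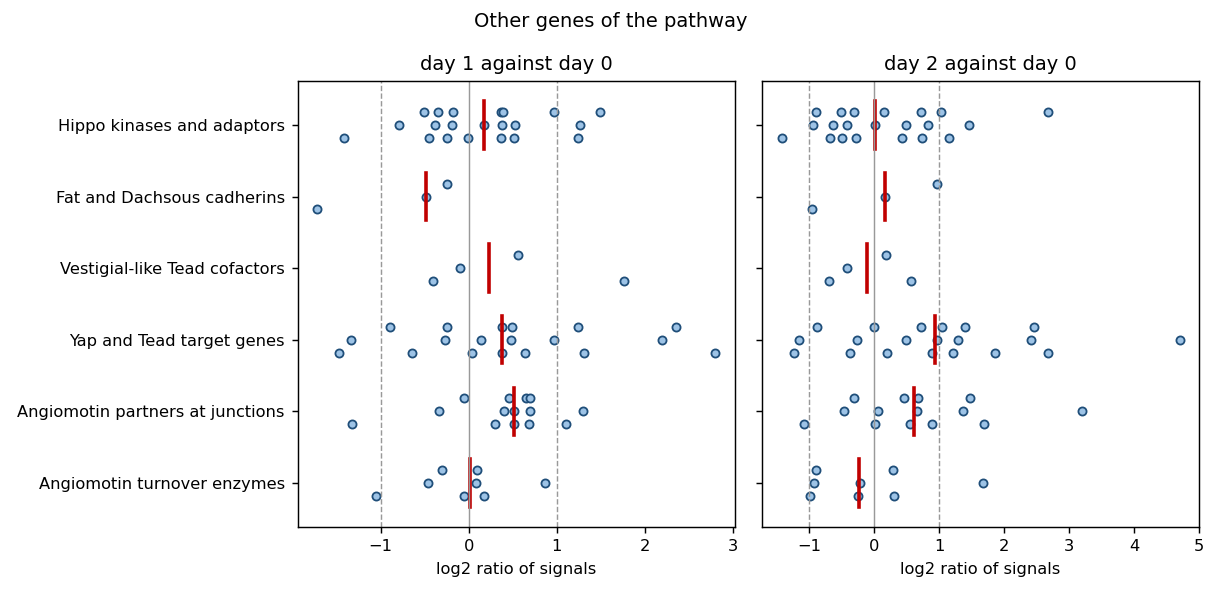
Log2 ratio of each listed gene above the floor on day 1 against day 0 (left) and day 2 against day 0 (right). A point is a gene, the red bar the median of its list, and dashed lines mark 2-fold. The Yap and Tead targets have medians of 0.38 and 0.93, and the Hippo kinases and adaptors 0.17 and 0.02.

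Genes commonly used as readouts of Yap1 and Tead activity in other, mostly human, cells were compared last. Of 22 listed, 19 were compared on day 1, with 5 at least 2-fold higher and 2 lower. On day 2, 9 of 20 were higher and 2 lower. Over all genes, 6.00% were higher and 6.58% lower on day 1, and 11.0% and 10.1% on day 2. The list's median log2 ratio was 0.38 on day 1 and 0.93 on day 2, both against day 0, beside -0.04 and -0.05 over all genes. Amotl2 is among the 9, as is Ptpn14. Of the 9, Crim1, Foxf2 and Nt5e were at the floor on day 0. Some probe sets of Nt5e, Dock5 and Crim1 fell short of 2-fold on day 2. Their lowest log2 ratios were 0.00 (at the floor on day 0 and day 2), 0.43 and 0.76. With means over probe sets, the list's median on day 2 was 0.67.

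The genes of this list followed different courses. F3, tissue factor, read 199, 1389 and 5164 on day 0, day 1 and day 2, and was 25.9-fold higher on day 2 than on day 0. Ccn1 (Cyr61), a secreted matrix protein, read 377, 386 and 2016, close to day 0 on day 1 and 5.35-fold higher on day 2. Its relative Ccn2 (Ctgf) read 345, 853 and 905, and so was brighter already on day 1. Both are standard Yap1 readouts. Over the 4 probe sets of Ccn1, log2 ratios lay between 0.00 and 1.18 on day 1 and between 1.61 and 3.26 on day 2. The 0.00 is of a probe set at the floor on day 0 and day 1, so it is not a measured ratio. The highest on day 1 was near that of the single Ccn2 probe set (1.31).

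Foxf2, a forkhead factor, was at the floor on day 0 and read 276 on day 1 and 299 on day 2, at least 5.53-fold higher on day 2. Ankrd1, another standard readout, read 64.8 on day 0, under the receptor background, and was at the floor on day 1 and day 2. The lower genes on day 2 were Gadd45a, a stress gene (1214, 437 and 543), and Igfbp3, which binds insulin-like growth factors (221, 142 and 93.9). Tgfb2 and Rbms3 stayed under the floor on every array.

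**Figure D4:**
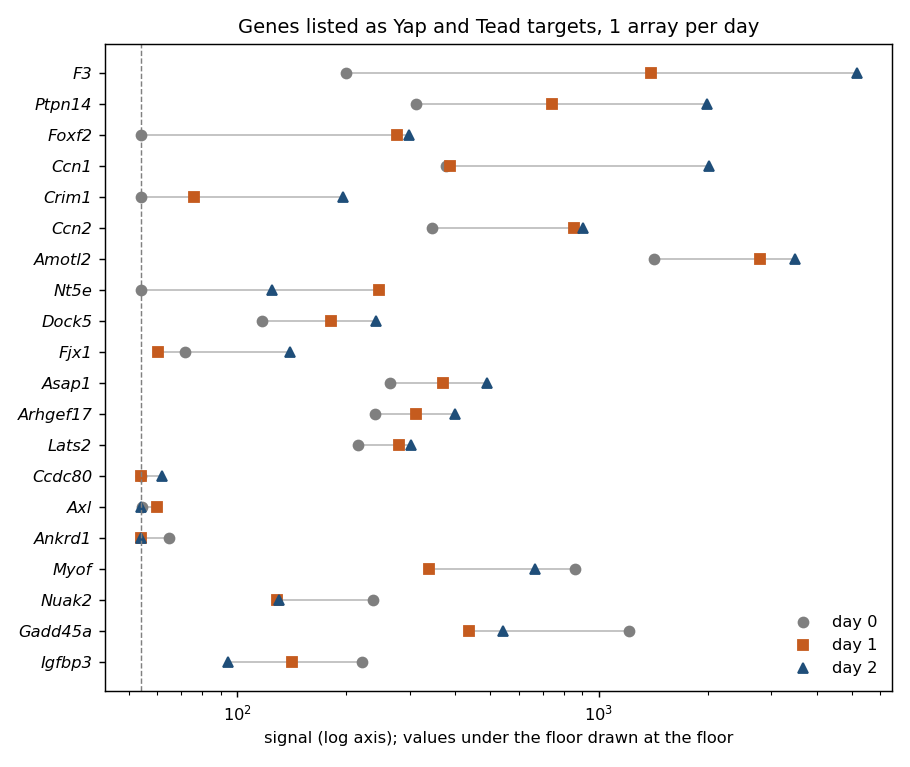
Signals (log axis) on day 0, day 1 and day 2 of the 20 genes listed as Yap and Tead targets that lay above the floor on at least 1 day, ordered by their day 2 against day 0 ratio. The dashed line is the floor of 54.0. F3 and Ptpn14 are at the top with higher signals on each later day, Ccn1, by the probe set that stands for it, lies near day 0 on day 1 and away from it on day 2, and Igfbp3 and Gadd45a are at the bottom.

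Markers of other cell types that use this pathway strongly were read beside these values. Trophectoderm markers had summed signals of 2995, 4795 and 10648 on day 0, day 1 and day 2. On day 2, 4 of 7 compared were at least 2-fold higher and 1 lower (11.0% and 10.1% of all genes). On day 1 and day 2 most of the sum came from the keratins Krt8 (567, 1552 and 5366) and Krt18 (556, 1594 and 3846), which endoderm also expresses. Cdx2 and Gata3, which Yap1 and Tead4 turn on in trophectoderm, were dim, with Cdx2 at 21.1, 80.0 and 121 and Gata3 at 72.7, 91.6 and 162. Together with the keratins they were the 4 higher on day 2. Elf5 was under the floor on every array, and Tfap2c was lower, at 885, 574 and 320.2. Eomes (555, 716 and 611) stayed within 2-fold of day 0. Hand1 was dimmer on both later days (312, 158 and 184), within 2-fold, with a lowest probe set log2 ratio of -1.31 on day 2.

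Fibroblasts, which can be present as feeder cells and express many of the listed target genes, had 5 of 8 markers (Col1a1, Col3a1, Postn, Dcn and Lum) under the floor on every array. The summed signal of the 8 was 668, 349 and 327 on day 0, day 1 and day 2, with Thy1 (421, 75.4 and 50.5) the only one past 2-fold. Of the mesoderm markers, 0 of 3 compared on day 1 and 0 of 4 on day 2 differed 2-fold from day 0, Hand2 was under the floor on every array, and the sums over 5 were 291, 239 and 339. Past 2-fold over all genes were 6.00% higher and 6.58% lower on day 1, and 11.0% and 10.1% on day 2.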

How the data were processed

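Total RNA of 3 samples was labelled with biotin and hybridised, 1 array per day. The deposited file holds a linear MAS5 intensity for each probe set, per the submitters' processing notes (no version given, scaling target not stated). The 3 columns had near-equal 2% trimmed means (497.5, 497.6 and 497.7 on day 0, day 1 and day 2), so a common scaling had been applied, which assumes equal total signal. Of 45101 probe sets, 64 were controls, 34945 had 1 gene, 932 several and 9160 none in the platform annotation. Symbols were updated by gene identifier (34741 matched, RefSeq GRCm38.p6).

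Arrays were rescaled to 1 trimmed mean, floored at the 40th percentile (54.0) and put on a log2 scale (Python 3.11.15, pandas 2.3.3, numpy 2.4.6). A gene counted as higher or lower at 2-fold or more with the brighter array above the floor; "at least" before any other fold marks one taken against the floor. Compared genes are those above the floor on at least 1 of both arrays. No test was possible, as there are no replicates, and precision is limited by the number of arrays. The measurement SD comes from pairs of probe sets annotated to the same gene: the root mean square of the gap between their log2 ratios over 44307 such gaps, divided by √2, binned by the dimmest signal. The calling was tested on simulated data with large changes in bright genes only. That does not bear on calls near 2-fold or on dim probe sets.

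The members, lists and thresholds were chosen with earlier results of these data known. Named genes were the members, Gata6, the cell type markers, the 3 widest on day 2 of each list, core kinases and standard targets, and the 3 closest courses; other list members named were chosen after their values were seen. Alternatives changed the floor, the normalization, the probe set rule and the fold threshold.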

Additional observations from a re-analysis of the deposited data

How the results depend on the processing

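Of 183 log2 ratios of members recomputed under other settings, 174 moved by less than the measurement SD, 9 moved by more, and no ratio past 2-fold changed sign. Amot moved most: its log2 ratios on day 1 and day 2 against day 0 were 5.11 and 5.58 under the higher floor (60th percentile), 5.28 and 5.75 using a pseudocount of 50, and 3.35 and 3.82 as a mean over probe sets. Amot and Wwtr1 were at least 2-fold higher on day 1 and day 2 against day 0 under every setting run. Tead4 was under 2-fold on day 1 with the pseudocount, with means over probe sets and without probe sets whose suffix is x, s or a (on day 2 too), and Tead3 was under 2-fold on day 2 with the pseudocount. Without those suffixed probe sets Amotl2 and Tead3 could not be read. Of the remaining 7 members, 2 were then higher on day 2 against day 0, beside 10.9% of all genes. At a 3-fold threshold 2 of 9 were higher, beside 5.19% of all genes.

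Counts over all genes moved with the floor and the threshold. A floor set at the 25th percentile gave 1256 higher and 1618 lower genes on day 1 against day 0, and 1336 higher and 912 lower on day 2 against day 1. Under the higher floor these were 539 and 517, and 440 and 272. At 3-fold they were 346 and 288, and 228 and 112, with 720 higher and 540 lower on day 2 against day 0. Of 126 list medians recomputed, 5 moved by more than the measurement SD over all pairs, 0.36, all of them of the Fat and Dachsous list, which had few measured genes. No paired analysis was possible because each day has 1 array. Signals near the receptor background, such as Amot on day 0, limit how exactly a fold can be given.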
